A study of Mus musculus with 5 samples.

Results

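Transcripts of the blood haemoglobins and of the neural globins were followed in the brains of 5 mice. The set holds 7 of the 47729 genes in the deposited table. These are the adult beta chain genes Hbb-bs and Hbb-bt, the adult alpha chain genes Hba-a1 and Hba-a2, the haem synthesis gene Alas2, and the globins made by brain cells themselves, Ngb and Cygb. They were chosen by name. The 5 red cell genes were taken because their levels had been seen to differ between these brains, so those levels are given as a description with no test. All 7 genes passed the filter on low counts, which left 14770 genes.

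The samples were right brain hemispheres from male mice of the inbred strain C57BL/6, at 5 months of age, with no allele or treatment named in the labels and 1 mRNA library for each sample. All 5 form 1 group, so no conditions were compared. Nothing in the labels says that each sample came from a separate animal, although the samples are called animals here, and p-values therefore cover the variation among samples only, part of which can be technical. Animal numbers are names and carry no order. Whether blood was flushed from the vessels before dissection is not given in the sources used here. Total library depth ran from 13184234 to 15570064 counts. All 9 markers of the main brain cell types were measured, with a summed level of 1789 to 1942 RPKM (counts divided by gene length in kilobases and by the library total).

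Haemoglobin, the oxygen carrier of red cells, is assembled from alpha and beta chains that each hold a haem group. Mature red cells of mammals have no nucleus, but young ones, the reticulocytes, still hold the messenger RNA of the chains and of Alas2, the red cell form of aminolevulinate synthase, which opens haem synthesis. Neuroglobin (Ngb) is a globin of nerve cells, known to be high in the hypothalamus. Cytoglobin (Cygb) is found in fibroblast-like cells and in some neurons and can remove nitric oxide.

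The chain genes exist as near-identical copies, which limits how far a read can be assigned to one of them. The coding sequences of Hbb-bs and Hbb-bt (444 bases each) differ at 1 base, C417T, and those of Hba-a1 and Hba-a2 (429 bases each) at 1 base, C381T, with positions counted from the first base of the start codon and the first-named gene's base given first. Both differences lie in exon 3, at the last base of a codon. The stretches that hold them run from 45 bases before the difference to the stop codon and are shown because they are the only coding bases that tell the copies apart (GENCODE M21 transcripts on GRCm38, coding strand, with the differing base in capitals).
Hbb-bs, chr7:103826665-103826737, minus strand: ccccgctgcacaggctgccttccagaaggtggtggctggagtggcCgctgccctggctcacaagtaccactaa
Hbb-bt, chr7:103812656-103812728, minus strand: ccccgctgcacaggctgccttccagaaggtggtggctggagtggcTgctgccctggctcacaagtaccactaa
Hba-a1, chr11:32284298-32284391, plus strand: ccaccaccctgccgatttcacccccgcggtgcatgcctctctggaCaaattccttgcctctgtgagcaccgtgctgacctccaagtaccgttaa
Hba-a2, chr11:32297115-32297208, plus strand: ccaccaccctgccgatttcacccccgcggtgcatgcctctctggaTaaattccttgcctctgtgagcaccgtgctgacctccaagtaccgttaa

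Over all annotated transcripts, 53.2% of the 50-base words of Hbb-bs also occurred in Hbb-bt, and 58.3% of those of Hbb-bt in Hbb-bs. The alpha genes shared more, with 72.3% of the words of Hba-a1 found in Hba-a2 and 89.3% of the words of Hba-a2 in Hba-a1. In the main coding transcripts, 198 words of Hbb-bs, 273 of Hbb-bt, 211 of Hba-a1 and 66 of Hba-a2 were not found in the main transcript of the partner. Of the 211 words of Hba-a1, 161 started upstream of the coding start, in a first exon that begins earlier than that of Hba-a2. No word was shared between an alpha and a beta gene, nor between Alas2, Ngb or Cygb and any other annotated gene. The levels of the single chain genes are therefore uncertain, whereas those of Alas2, Ngb and Cygb do not rest on shared sequence. The sources used here do not give the counting of reads with several matches.

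The upstream sequences of the 5 red cell genes were searched after these genes had been seen to move together between animals. Any part of these sequences in that spread was not tested. RefSeq promoter entries (GRCm38.p6) were found for 5 of the 7 genes and not for Ngb and Cygb. The bases from -39 to -10 before the RefSeq start of the chain genes each hold TATAA (capitals), the core of the TATA box. In GENCODE M21 these bases lie inside the gene spans of Hbb-bs, Hbb-bt and Hba-a1 and before that of Hba-a2. The starts in the RefSeq and GENCODE annotations thus differ.
Hbb-bs, chr7:103827938-103827967, minus strand: gggcagagcaTATAAggtgaggtaggatca
Hbb-bt, chr7:103813933-103813962, minus strand: agcattgggtaTATAAagctgagcagggtc
Hba-a1, chr11:32283633-32283662, plus strand: ccttggagggcaTATAAgtgctacttgctg
Hba-a2, chr11:32296453-32296482, plus strand: tggagggcaTATAAgtgctacttgctgcag

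TATAA was searched for on both strands over 250 bases before the start and was present in 22.8% of 32851 promoters. It was also matched in Alas2, at -208 on the opposite strand and at -207 on the coding strand. Hbb-bt had a further match at -229 on the opposite strand. For CCAAT, Hbb-bt had opposite-strand matches at -80 and -36 besides the match given next. CCAAT, present in 33.9%, lay on the coding strand of all 4 chain genes, starting 76 bases before the start in Hbb-bs, 75 in Hbb-bt, 88 in Hba-a1 and 91 in Hba-a2, and was not found in Alas2. CCNCNCCC, a form of the site of KLF factors, was present in 45.9% of promoters and matched once each in Hbb-bs and Hbb-bt and 4 times, with overlaps, in Alas2. TGATAA, a form of the GATA factor site, was present in 7.94% and was matched once each in Hba-a1 and Hba-a2. These letter matches describe the windows searched and do not show binding, which was not measured.

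Hbb-bs (ENSMUSG00000052305, GRCm38 chromosome 7, 103826534 to 103828096), the major adult beta chain in these counts, stood at 66.0, 89.0, 162, 105 and 42.5 RPKM in animals 1 to 5, with a mean of 92.8 ± 45.1 (SD, n = 5, as for all values after ±). Animal 3 was highest and animal 5 lowest, with the other animals in between. Its copy Hbb-bt (ENSMUSG00000073940, chromosome 7, 103812524 to 103813996) had 17.9, 21.8, 38.6, 25.5 and 9.82 RPKM (mean 22.7 ± 10.6). The counts behind these values ran from 483 to 1980 for Hbb-bs and from 91 to 385 for Hbb-bt. The 95% Poisson interval of Hbb-bs was 441 to 528 counts in animal 5 and 1894 to 2069 in animal 3. The reads carry no molecular identifiers, so such intervals cover counting error only and not the sampling of molecules.

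The alpha chain genes followed the same order of animals at lower levels. Hba-a1 (ENSMUSG00000069919, chromosome 11, 32283511 to 32284465) had 7.82, 8.77, 16.0, 11.3 and 4.58 RPKM in animals 1 to 5 (mean 9.69 ± 4.25). Hba-a2 (ENSMUSG00000069917, chromosome 11, 32296489 to 32297298) had 7.06, 8.06, 15.7, 9.05 and 4.09 RPKM (mean 8.80 ± 4.30). Hba-a2 rests on the fewest counts, 36 in animal 5 (95% Poisson interval 25.2 to 49.8) and 149 in animal 3 (126 to 175). These intervals do not overlap, but those of Hba-a2 in animals 1, 2 and 4 (63, 80 and 94 counts) overlap one another.

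Alas2 (ENSMUSG00000025270, chromosome X, 150547375 to 150570638) had 2.61, 3.16, 4.60, 3.39 and 1.29 RPKM (mean 3.01 ± 1.20) and the same order of animals, 3, 4, 2, 1 and 5 from high to low. It lies on another chromosome and shares no 50-base word with the chain genes. Of the other genes tested, 127 (0.860%) had this order of animals. Alas2 was chosen together with the chain genes for its variation, so the shared order is a description and no evidence.

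**Figure D1:**
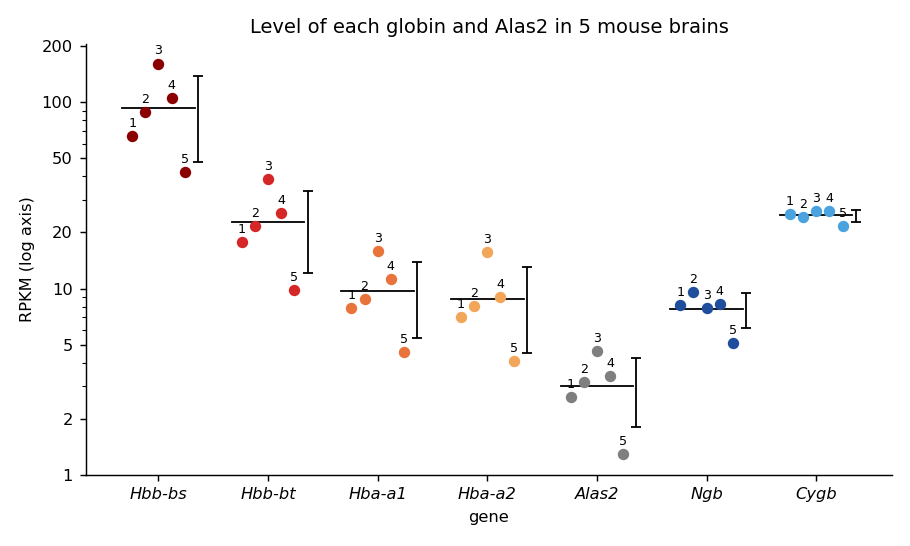
Level of each of the 7 genes in RPKM (log axis), 1 point for each of the 5 animals with its number above it, a line at the mean and a bar at the side for the SD. The 5 red cell genes are highest in animal 3 and lowest in animal 5, Ngb is low in animal 5 only, and Cygb lies between 21.8 and 26.2 in all 5 animals.

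Scaled to library depth with TMM factors (trimmed mean of M-values, given as CPM, counts scaled to a common library size), the 5 red cell genes summed to 87.3, 111, 202, 132 and 53.1 CPM in animals 1 to 5. Together they took 0.0119% of all counts. The highest value was 3.83-fold, 3.95-fold, 3.51-fold, 3.86-fold and 3.58-fold the lowest for Hbb-bs, Hbb-bt, Hba-a1, Hba-a2 and Alas2. On the log2 scale with a prior count of 2 added, which damps low counts, the same ranges were 3.82-fold, 3.89-fold, 3.41-fold, 3.72-fold and 3.46-fold, against a median of 1.19-fold over all genes tested. A range of at least 3-fold was reached by all 5 and by 0.156% of the genes tested. Highest in animal 3 and lowest in animal 5 were 4.55% of the genes tested. These members were chosen for this pattern, so their counts describe them and are no evidence for it. The ranges fell to 2.15-fold to 2.57-fold without animal 3, and to 1.74-fold to 2.44-fold without animal 5. Red cell genes is used here as a name, since bulk counts do not show which cells held these transcripts. In bulk samples, fewer red cells and less RNA in each cell cannot be told apart either.

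**Figure D2:**
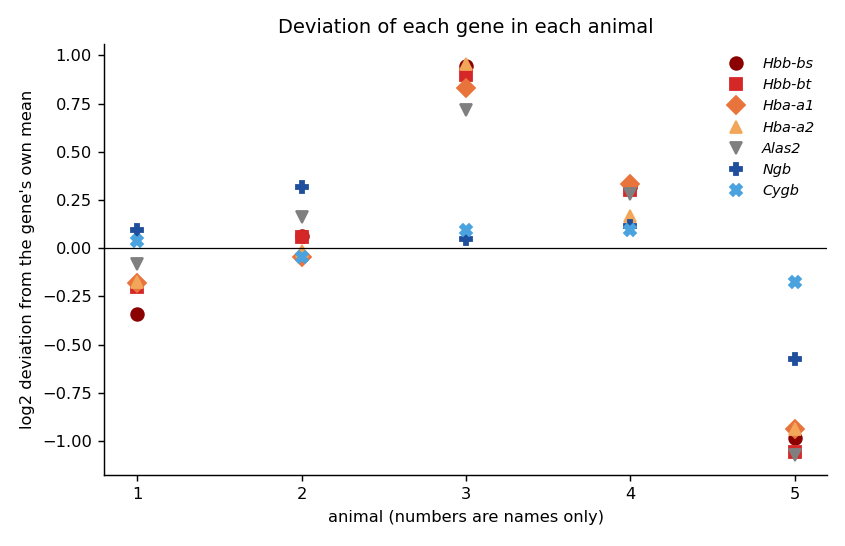
Deviation of each gene from its own mean over the 5 animals (log2 of TMM-scaled CPM, prior count 2), with 1 symbol for each gene. In animal 3 the 5 red cell genes lie between 0.72 and 0.96 and in animal 5 between -1.07 and -0.94, while Cygb lies between -0.18 and 0.10 in all animals.

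The make-up of the red cell counts varied by a few percentage points while their sum varied several-fold. Hbb-bs took 65.6%, 68.4%, 69.4%, 68.7% and 69.0% of the counts of the 5 genes in animals 1 to 5. Its 95% Wilson intervals overlap in all animals, but only narrowly between animal 1 (62.8% to 68.2%) and animal 3 (67.6% to 71.0%). Hbb-bt took 13.0% to 14.5%, Hba-a1 6.35% to 7.32% and Hba-a2 4.58% to 5.42%. Alas2 took 7.23% in animal 1 (5.88% to 8.86%) and 5.50% in animal 3 (4.72% to 6.40%), the highest and lowest values of the 5 animals, with intervals that overlap. The alpha chain genes together took 12.0% to 13.7% of the chain counts. For each of the 5 genes the intervals of all animals overlapped, including those of animal 3, with 2855 red cell counts, and animal 5, with 700. Overlap of intervals is no test of equal shares, and none was run.

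**Figure D3:**
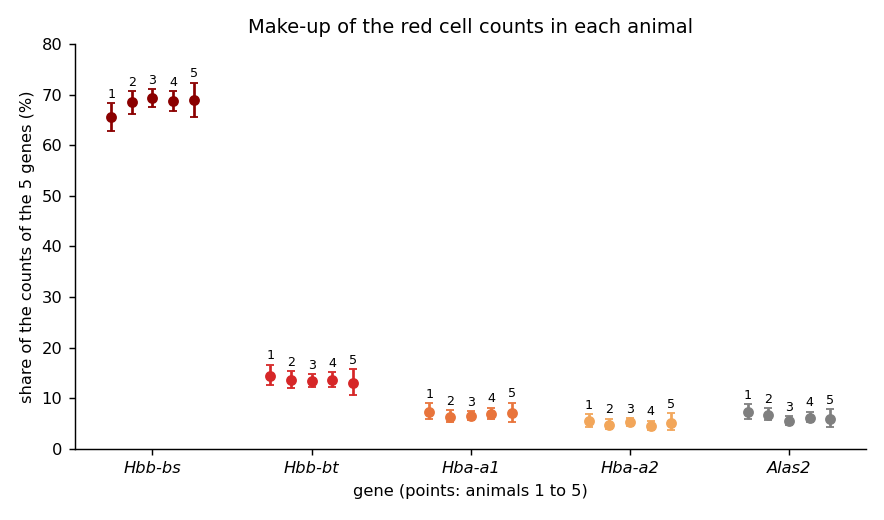
Share of each gene in the summed counts of the 5 red cell genes (vertical axis, %), 1 point for each of the 5 animals with its 95% Wilson interval, which covers counting error only. Hbb-bs holds 65.6% to 69.4% in every animal, and the intervals of each gene overlap between animals.

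Within each animal, the beta chain genes exceeded the alpha chain genes. The log2 ratio of their summed RPKM was 2.49, 2.71, 2.66, 2.67 and 2.58 in animals 1 to 5 (mean 2.62 ± 0.090, or 6.15-fold). Counted per unshared 50-base word instead of per base, the excess was 2.34-fold over all transcripts, with the values of the single genes added. Over the main transcripts, with counts and words each summed first, it was 4.07-fold. It was 2.52-fold there when words that start upstream of the coding start were left out. Its size thus depends on how shared sequence is treated and how genes are summed. Hbb-bs exceeded Hbb-bt by 4.06-fold (log2 ratio 2.02 ± 0.084), with 3.68-fold in animal 1 and 4.29-fold in animal 5 as the extremes. Counted per unshared word of the main transcripts it was 6.90-fold, and 5.04-fold without upstream words. Hba-a1 and Hba-a2 were close, with a log2 ratio of 0.15 ± 0.11, which was -1.24 when counts were taken per unshared word and 0.84 when upstream words were left out. No order of Hba-a1 and Hba-a2 can be read from these counts.

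Cygb exceeded Ngb in every animal, with log2 ratios of 1.62, 1.32, 1.73, 1.65 and 2.07 (mean 1.68 ± 0.27, or 3.20-fold). The ratio was lowest in animal 2 and highest in animal 5. Alas1, the form of aminolevulinate synthase used by most cells, exceeded Alas2 by 4.36-fold on average (log2 ratio 2.13 ± 0.59), from 2.90-fold in animal 3 to 8.43-fold in animal 5. Alas1 itself had 13.1, 12.2, 13.5, 12.2 and 11.7 RPKM, so the spread of this ratio came with that of Alas2. Each of the 5 ratios had the same sign in 5 of 5 animals and in the exact two-sided sign-flip test a p of 2 in 32, that is, 2 of the 32 sign patterns were as extreme. This is the smallest p that 5 animals allow and stays the same after Benjamini-Hochberg adjustment over the 5 ratios, so none can pass 0.05.

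**Figure D4:**
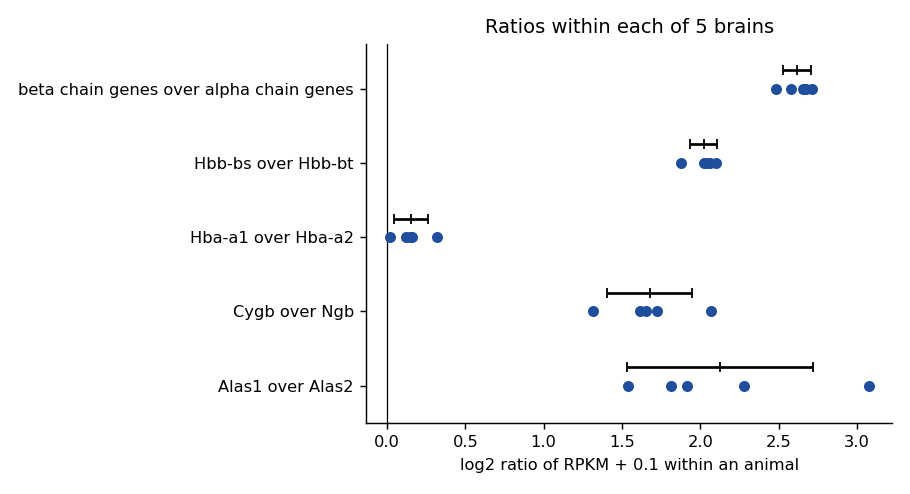
Log2 ratio of RPKM plus 0.1 within an animal (horizontal axis) for 5 pairs of genes or gene sums, 1 point for each of the 5 animals, with the mean and SD as a bar above the points. The ratios between chain genes have an SD of 0.11 or less, and Alas1 over Alas2 spans 1.54 to 3.08.

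Ngb (ENSMUSG00000021032, chromosome 12, 87097531 to 87102539) had 8.11, 9.63, 7.85, 8.28 and 5.11 RPKM in animals 1 to 5 (mean 7.79 ± 1.65). Animal 5 lay apart from the other animals, which spanned 7.85 to 9.63. In counts, animal 5 had 116 (95% Poisson interval 95.9 to 139) and animal 1, a library of nearly the same depth, 187 (161 to 216). The range of Ngb was 1.85-fold with all animals and 1.20-fold without animal 5. In animal 3, where the red cell genes peaked, Ngb lay 0.05 above its mean on the log2 scale.

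Cygb (ENSMUSG00000020810, chromosome 11, 116645595 to 116654313) was the steadiest of the 7 genes, with 25.1, 24.1, 26.2, 26.2 and 21.8 RPKM (mean 24.7 ± 1.85). Its range of 1.21-fold was close to the median of all genes tested (1.19-fold), and 56.0% of them had a smaller one. Animal 5 was again lowest, by 1.10-fold against the next animal. Of all genes tested, 23.0% were lowest in animal 5. In the edgeR quasi-likelihood fit that compares each gene's spread between animals with genes of like abundance, 0.305% of the genes tested passed an adjusted p of 0.05 and are called more variable. Relative to genes of like abundance, the spread of Cygb was 2.2 times the trend, a ratio larger than that of 88.5% of the genes tested. For Ngb the ratio was 6.2, larger than that of 98.9%. Neither Ngb nor Cygb was called, and Ngb was when the filter on low counts was left out.

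By mean RPKM the order was Hbb-bs, Cygb, Hbb-bt, Hba-a1, Hba-a2, Ngb and Alas2. Of the 7 genes, Hbb-bs at the top and Alas2 at the bottom had ranges over the 5 animals that did not overlap with that of their neighbour in the order. The range of Alas2 (1.29 to 4.60) did overlap those of Hba-a2 (from 4.09) and Hba-a1 (from 4.58). Cygb (21.8 to 26.2) and Hbb-bt (9.82 to 38.6) overlapped, and Hbb-bt was above Cygb in animal 3 alone. Hba-a1, Hba-a2 and Ngb overlapped in their ranges. Summed RPKM of the 4 chain genes was 98.7, 128, 232, 151 and 60.9, and that of Ngb and Cygb 33.2, 33.8, 34.0, 34.5 and 26.9. The chain genes thus exceeded the neural globins in every animal.

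Other globin genes were at or near 0. The embryonic genes Hba-x and Hbb-bh1 and the further cluster genes Hbb-bh0, Hbb-bh2 and Hbb-bh3 had a count of 0 in all 5 libraries, which allows up to 3 counts in a library, and embryonic Hbb-y had 0 to 2 counts. Hba-ps4, an alpha globin pseudogene, had 3 to 7 counts, the theta globin gene Hbq1a 4 to 7 and myoglobin (Mb), the oxygen store of muscle, 3 to 11. Androglobin (Adgb), a globin of ciliated cells, had 0.243 ± 0.0615 RPKM and was the only one of the 11 matched genes that passed the filter.

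Few other red cell genes were measurable. Of 17 matched genes for the red cell membrane and its regulators, 16 had a count and 2 passed the filter, Ank1 (7.94 ± 1.11 RPKM) and Gypc (0.656 ± 0.0684), which encode membrane skeleton and membrane proteins that other cells make too. The red cell transcription factor gene Klf1 had 0 to 5 counts. Slc4a1, the band 3 anion exchanger of the red cell membrane, named after its values were seen, had 4, 5, 17, 10 and 2 counts in animals 1 to 5. It had the order of animals of the chain genes, on counts too low for the filter.

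The 10 listed genes of haem synthesis other than Alas2, among them Fech (19.95 ± 1.15 RPKM), which inserts iron into the ring, the mitochondrial carrier Slc25a39 (19.5 ± 1.22) and Urod (16.8 ± 0.695), had ranges with a median of 1.16-fold (1.19-fold for the whole set of tested genes). Their sum was highest in animal 3 (121 RPKM) and lowest in animal 5 (110), as for the red cell genes, and 3 of the 10 genes had both extremes in these animals, against 4.55% of all genes tested. The haem handling list summed to 106 to 113 RPKM, led by the haem transporter Slc48a1 (50.2 ± 1.65), the constitutive haem oxygenase Hmox2 (24.3 ± 0.718) and the haem-regulated kinase Eif2ak1 (13.0 ± 0.504). The inducible haem oxygenase Hmox1, named after its values were seen, had 2.07, 2.11, 2.12, 2.23 and 1.93 RPKM. The reductases that can serve cytoglobin, led by Cyb5b (38.5 ± 0.617), Por (20.9 ± 0.804) and Cyb5a (15.8 ± 1.03), summed to 92.8 to 96.97 RPKM. None of the 26 tested genes of these lists was called in the edgeR fit, by DESeq2 or by limma, and 0 had an unadjusted edgeR p under 0.05.

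The sums of markers of other blood cells and of vessels spread less than the red cell genes and followed other orders of animals. The platelet list summed to 7.21 to 9.09 RPKM and was led by Gp1bb (4.75 ± 0.249), which shares 90.6% of its words with another gene, and Pf4 (1.44 ± 0.276). Of its 4 tested genes, 3 were lowest in animal 5, against 23.0% of all genes tested. Among these, Pf4 was also highest in animal 3 (1.86 RPKM, and 1.16 in animal 5), but on only 19 and 11 counts. The other tested platelet genes peaked elsewhere, Gp1bb in animal 1, Gp1ba in animal 2 and Itga2b in animal 5, with Itga2b lowest in animal 3. Highest in animal 3 and lowest in animal 5 were 4.55% of all genes tested. The granulocyte list, led by S100a9 and S100a8, summed to 2.43, 4.07, 1.86, 4.97 and 2.26 RPKM, lowest in animal 3, and none of its 8 genes passed the filter. The lymphocyte list summed to 12.1 to 16.0 RPKM, with animal 3 lowest. Most of it was Ighm (12.2 ± 1.36), the only 1 of its 8 genes that passed the filter. The endothelial list summed to 87.7 RPKM in animal 5, its lowest, and to 97.1 in animal 4, its highest. The mural list summed to 87.9 RPKM in animal 4 and 101 in animal 1. The meningeal fibroblast list, a cell type that makes Cygb, summed to 49.9, 45.3, 44.4, 49.2 and 50.2 RPKM in animals 1 to 5. Its 3 leading genes peaked in different animals, Igf2 in animal 1, Dcn in animal 4 and Pdgfra in animal 5. Igf2 shares 61.2% of its words with other genes. The part of these cell types in the levels of the red cell genes and of Cygb was not tested.

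**Figure D5:**
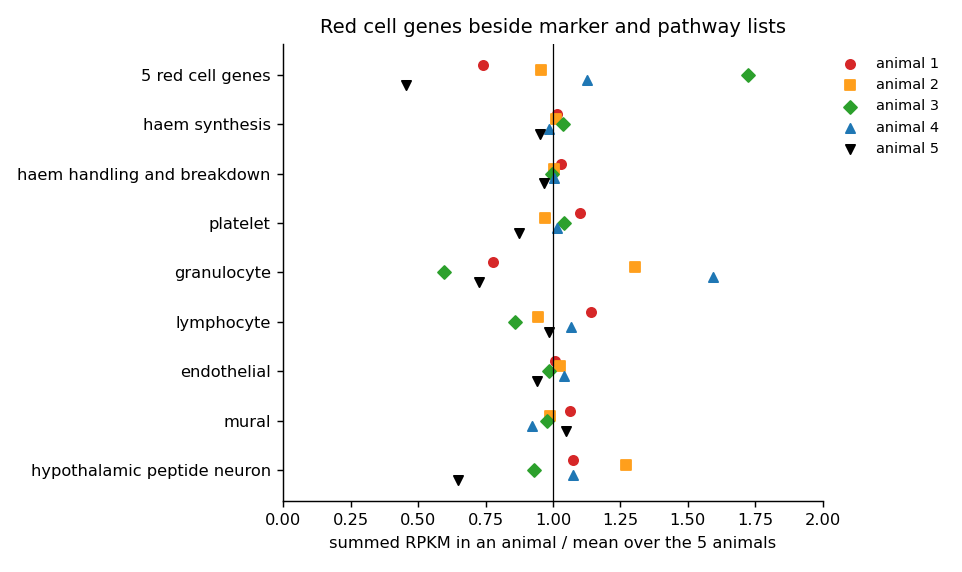
Summed RPKM of the 5 red cell genes and of 8 marker and pathway lists in each of the 5 animals, divided by the mean over the animals (horizontal axis, 1 is the mean), with 1 symbol for each animal. The red cell genes spread widest, with 62.2 RPKM in animal 5 and 236 in animal 3, and the hypothalamic list is lowest in animal 5.

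Hypothalamic peptide genes shared the low value of Ngb in animal 5. The list summed to 95.9, 113, 83.1, 96.0 and 58.0 RPKM in animals 1 to 5, and 8 of its 10 tested genes were lowest in animal 5, as were 23.0% of all genes tested. Avp, which encodes vasopressin, and Oxt, which encodes oxytocin, were called (edgeR quasi-likelihood adjusted p = 0.0222 and 0.0134), as were 0.305% of all genes tested. The other leading genes were Cartpt (14.2 ± 2.77) and Pmch (12.1 ± 1.99). Without animal 5 the adjusted p was 0.341 for Avp and 0.822 for Oxt, and with edgeR's non-robust prior it was 0.0880 and 0.0603. For Avp it was also 0.0779 without animal 1 and 0.0850 with limma on RPKM. The nitric oxide interneuron list, whose cells are known to hold Cygb, summed to 323 to 366 RPKM, led by Sst, Npy and Nos1ap, and had no gene called. The part of tissue makeup in the level of Ngb was not tested.

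In the hypoxia response list, 1 of 13 tested genes was called, the glucose transporter gene Slc2a1 (31.9 ± 5.54 RPKM, edgeR adjusted p = 0.0237), with 27.1, 27.1, 37.3, 29.8 and 38.4 RPKM in animals 1 to 5. Without animals 2, 3 and 5 in turn its adjusted p was 0.0559, 0.0950 and 0.0813, and it was 0.0880 with the non-robust prior and 0.668 with limma. The other leading genes, Ldha (45.5 ± 1.46) and Epas1 (41.1 ± 1.11), and Vegfa (20.5 ± 1.02) were not. In all, 14 of the 16 lists had no gene called among 81 tested, of which 17 had an unadjusted edgeR p under 0.05 (against 802 of all 14770 genes tested), 3 were DESeq2 dispersion outliers (Ank1, Mbp and Miat) and 0 were called by limma.

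Outside the set, the genes whose deviations over the 5 animals were nearest to the mean profile of the red cell genes were Fbxl12os, Pthlh, 5033417F24Rik, Psd4, mt-Ti, Oprm1, En1 and Calca. Their root mean square difference from that profile was 0.23 to 0.28 on the log2 scale. These genes had mean counts of 17.4 to 68.2, and none was called in the variability fit. Nearest to Ngb were Gm44033, Cuedc1 and Kdm8 (0.049 to 0.058), and nearest to Cygb, whose profile is nearly flat, Coprs, Plcl1 and BC051142 (0.015 to 0.018).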

How the data were processed

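Whole-number counts per Ensembl gene for 5 libraries were deposited by the authors, made with CASAVA 1.7, STAR 2.4.1d, featureCounts 1.4.6-p4 and GRCm38 per the submitters' processing notes. Annotation release, strand setting and treatment of multi-mapping reads: not given in the sources used here. RPKM values were also deposited by the authors. They fit the counts when the 5 library totals are taken in turn down the table (100% of nonzero entries matched within 0.0011 RPKM plus a relative 0.0002, against 21.2% with own totals), so 80% of entries were divided by another library's total. RPKM was therefore recomputed with own totals and the gene length that both tables imply.

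Symbols were matched for 47224 genes through GENCODE M21 (GRCm38), and 150 of 154 listed symbols were found. Variability was fitted with edgeR 4.0.16 (filterByExpr, TMM, robust glmQLFit, intercept only, with 4 residual and 15.3 prior degrees of freedom), tested on simulated data, and Benjamini-Hochberg adjusted over 14770 genes. Alternatives used limma 3.58.1 (RPKM plus 0.1) and DESeq2 1.42.0. Ratios used RPKM plus 0.1. Members and lists were chosen with earlier results of these data known. Named genes are the members, the 3 most abundant and any called genes of each list, and the 8, 3 and 3 genes nearest to the red cell, Ngb and Cygb profiles. Where room was short, lists are given by their sums.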

Additional observations from a re-analysis of the deposited data

How the results depend on the processing

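The 5 ratios kept their sign under the alternatives with a value (another pseudocount, counts without length, deposited RPKM, a count minimum of 10), except Hba-a1 over Hba-a2, which turned to -1.24 per unshared word, both over all transcripts and over the main ones. Word counts of the main transcripts were added after seeing the data. Leaving out 1 animal gave log2 ratios of 2.60 to 2.66 for beta over alpha chains, 2.0 to 2.06 for Hbb-bs over Hbb-bt, 0.11 to 0.19 for Hba-a1 over Hba-a2, 1.58 to 1.77 for Cygb over Ngb and 1.89 to 2.27 for Alas1 over Alas2. Ranges between animals without 1 animal ran from 2.44 to 3.82 for Hbb-bs, 2.15 to 3.89 for Hbb-bt, 2.02 to 3.41 for Hba-a1, 2.15 to 3.72 for Hba-a2, 1.74 to 3.46 for Alas2, 1.20 to 1.85 for Ngb, 1.10 to 1.21 for Cygb and 2.30 to 3.77 for the sum of the red cell genes, with animal 3 or 5 behind the lower values. The range of Cygb was 1.49-fold in the deposited RPKM, where most entries were divided by another library's total. The number of genes called was 45, against 249 without a filter on low counts, 101 by the DESeq2 outlier criterion, 19 with edgeR's non-robust prior, 5 by limma and 18 to 44 without 1 animal (26 without animal 3, 18 without animal 5), and the cause was not tested. No paired comparison of conditions was possible because there is 1 group. Depth limits Hba-a2 and Alas2 most, with 36 and 41 counts in animal 5.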
